A study of Bos taurus with 6 samples.

Results

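Intermediate filament and desmosome genes were examined in cultured bovine granulosa cells (GC) as a set of 10, namely the keratins KRT7, KRT8, KRT18 and KRT19, the related filament genes VIM and DES, and the desmosomal genes DSP, PKP2, JUP and DSG2. They were found by gene symbol in the deposited table, and each symbol had 1 transcript cluster, the unit the array uses for a gene, so that 10 of 26773 transcript clusters were described. The genes were chosen by function with their signals and fold changes between the culture densities already known from earlier results, so their values are given as a description with no p-values. The samples were 6 cultures of primary GC from bovine follicles, of which 3 had a normal and 3 a high plating density. All of them were kept for 9 days in serum-free α-MEM with FSH, IGF-1 and androstenedione and were harvested for total RNA, so that the groups differed by label only in the number of cells plated. The GC were pools from many ovaries of cows of undefined cycle stage, collected from follicular fluid of small to medium follicles and frozen before culture. Each culture was measured on its own Bovine Gene 1.0 ST microarray. The methods speak of separate GC preparations, but the labels do not say which cows went into which culture or whether both densities shared a pool, so p-values measure only the spread between these samples.

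Keratins are obligate heteropolymers, and a filament needs a type I partner such as KRT18 or KRT19 and a type II partner such as KRT8 or KRT7. KRT8 and KRT18 are the first keratins of simple epithelia, whereas vimentin is the filament protein of mesenchymal cells and desmin that of muscle cells. Desmosomes fasten these filaments to the cell border through desmoplakin, plakoglobin and plakophilins, which hold the cytoplasmic tails of desmosomal cadherins. GC are epithelial cells of the ovarian follicle that are known to hold both vimentin and keratin filaments.

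Signals are log2 values from the authors' RMA procedure, and each group mean carries the SD of its cultures (n = 3). Fold changes are high density mean minus normal density mean on the log2 scale, with the standard error (SE) from limma. A transcript cluster was termed called when its fold change exceeded 1.5 in size, which is 0.58 on the log2 scale, and its p-value and FDR were below 0.05 in limma's test over all transcript clusters. The background level of 4.62 is the 95th percentile of the signals of 82 reporter control rows. Array medians ranged from 4.34 to 4.43. High density replicate 2 lay at Euclidean distances of 47.5 and 45.0 from the other high density cultures, which were 35.3 apart, and normal density cultures were between 31.2 and 32.4 apart. Without this culture the log2 fold changes were 4.34 for KRT18, 3.62 for KRT8, −0.04 for VIM, 0.08 for JUP and 0.05 for DSG2, and those of PKP2 and DES are given with their signals.

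KRT18 was among the strongest rises of the whole table. Its log2 signals at normal density were 5.02, 4.94 and 4.28 in replicates 1, 2 and 3, and at high density they were 9.16, 8.93 and 9.02. The groups were far apart, and the lowest high density culture exceeded the highest normal density culture by 3.91. The log2 fold change of 4.29 (SE 0.19) corresponds to 19.6-fold and was place 4 among the rises of all transcript clusters. Normal density replicate 3 was below the background level, so that the normal density mean of 4.75 ± 0.40 (SD, n = 3) lies close to that level and the fold change rests on a low signal at normal density.

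KRT8, the type II partner of KRT18, rose together with it. The signals at normal density were 5.09, 5.49 and 4.84, and those at high density were 8.72, 8.61 and 8.80. No culture lay between these ranges, which were 3.12 apart. The log2 fold change was 3.57 (SE 0.16), that is 11.8-fold and place 10 among all rises. For both partners the spread was larger at normal density, with an SD of 0.33 for KRT8 against 0.10 at high density and of 0.40 for KRT18 against 0.11. Within each density the lowest culture was the same for both genes, replicate 3 at normal and replicate 2 at high density. With each culture left out in turn the log2 fold change stayed between 4.06 and 4.43 for KRT18 and between 3.42 and 3.74 for KRT8.

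The other simple-epithelial keratins were not detected above background at either density. KRT19, a type I keratin of ducts and simple epithelia, had signals of 2.70, 2.69 and 2.63 at normal and of 3.01, 2.61 and 2.95 at high density. KRT7, the type II keratin often found with it, had 3.18, 3.24 and 3.11 at normal and 3.56, 3.32 and 3.10 at high density. In both genes the groups overlapped, and as all cultures were below 4.62 no fold change is given.

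VIM, the vimentin gene, was not called and its difference between densities was smaller than its SE from limma. With the methods' t-test the SE was 0.024, smaller than the difference, and VIM was not called either. Its log2 signals were 11.12, 11.14 and 11.20 at normal density and 11.11, 11.12 and 11.13 at high density. The groups overlapped, and the high density cultures lay inside or just below the normal density range. The difference of −0.04 (SE 0.06) had a 95% interval from −0.19 to 0.11, so a change of 1.5-fold lies outside the interval.

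DES, the desmin gene, had low signals, 4.62, 4.72 and 4.39 at normal density and 5.36, 4.86 and 5.01 at high density. The groups did not overlap, with the closest cultures 0.14 apart, and the normal density mean of 4.58 was just below the background level. The log2 fold change of 0.50 (SE 0.15) did not reach the threshold and DES was not called. Without high density replicate 2 it was 0.61 and was called.

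**Figure D1:**
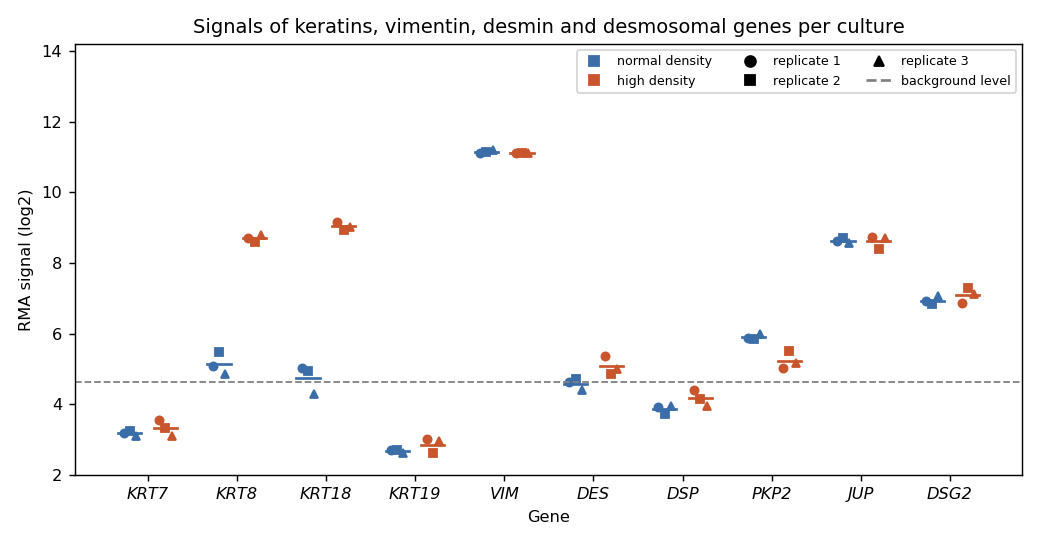
Log2 RMA signals (vertical axis) of the 10 genes in the 6 cultures, with normal density in blue and high density in orange, symbols for the replicates, short lines for group means and a dashed line at the background level of 4.62. KRT8 moves from between 4.84 and 5.49, above the background level, and KRT18 from between 4.28 and 5.02, around it, to between 8.61 and 9.16. VIM stays between 11.11 and 11.20, and KRT7, KRT19 and DSP stay below the background level.

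PKP2, an armadillo protein that links desmosomal cadherins to desmoplakin, fell at high density. Its signals were 5.87, 5.83 and 5.98 at normal density and 5.03, 5.50 and 5.17 at high density. The groups did not overlap, and high density replicate 2 was the culture nearest to normal density. The log2 fold change was −0.66 (SE 0.12), and −0.79 without that culture. The call was lost without high density replicate 1, at −0.56, and with the methods' t-test.

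JUP and DSG2 were above background in every culture and were not called. JUP encodes plakoglobin, which serves in desmosomes and in adherens junctions, and had signals of 8.63, 8.71 and 8.56 at normal and 8.72, 8.40 and 8.71 at high density, with high density replicate 2 the lowest of all. The difference of −0.02 (SE 0.10) had a 95% interval from −0.26 to 0.22. DSG2, the desmosomal cadherin of simple epithelia, had signals of 6.92, 6.84 and 7.05 at normal and of 6.86, 7.30 and 7.11 at high density. The groups overlapped in both genes, and the difference of DSG2 was 0.15 (SE 0.12, 95% interval from −0.13 to 0.44).

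DSP, which encodes desmoplakin and is the tie between desmosome and filament, was below the background level in all cultures. Its signals were 3.92, 3.71 and 3.96 at normal density and 4.39, 4.15 and 3.95 at high density, and the groups met at their edges. No fold change is given for it.

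In all, 3 of the 10 genes were called, 2 up and 1 down, while 7.49% of all transcript clusters were called, 3.97% up and 3.51% down. For 4 genes the groups did not overlap, which was so for 37.3% of all transcript clusters. As the genes were chosen with this comparison known, nothing is read from these counts. The median log2 fold change of the 10 genes, the 3 below background included, was 0.17, beside 0.02 over all transcript clusters. PKP2 lies just inside the fold change threshold and DES just outside it.

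**Figure D2:**
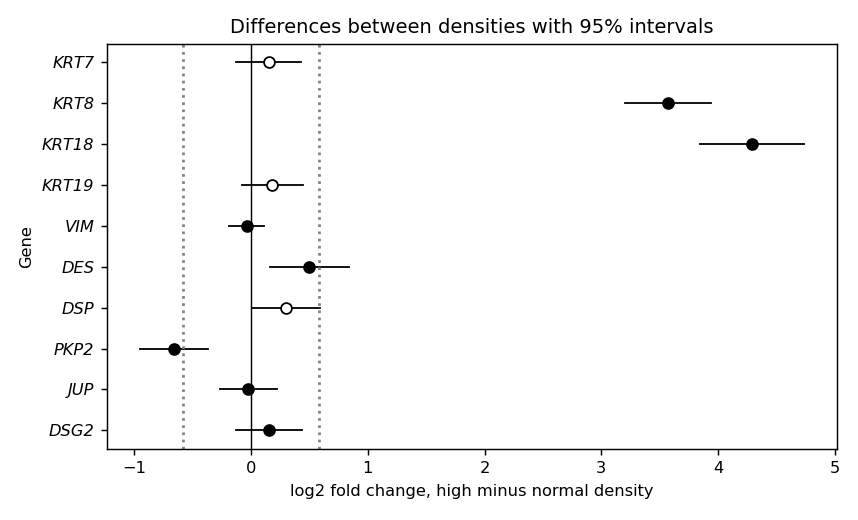
Log2 fold changes, high minus normal density (horizontal axis), of the 10 genes with 95% intervals from limma, dotted lines at a fold change of 1.5 in size, and open symbols where both group means were at or below background. KRT18 at 4.29 and KRT8 at 3.57 stand apart from the other 8 genes, which lie between −0.66 and 0.50.

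KRT18 and KRT8 also share a place in the genome that the choice of the genes did not use. In the RefSeq annotation of the ARS-UCD2.0 assembly both lie on chromosome 5, at the end of the type II keratin cluster, with 0 protein-coding genes between them, although KRT18 is a type I keratin. The neighbours were looked up after the values of the pair had been seen. Among the protein-coding genes up to 6 places from either gene, 11 of 12 had a transcript cluster here. Of these 1 was called, beside 7.49% of all transcript clusters. This was SPRYD3, a gene 3 places from KRT18, which rose by 0.69 (SE 0.11) at an adjusted p = 0.00398 by limma. IGFBP6, on the same side, had a log2 fold change of 0.47 (SE 0.11) with groups that did not overlap and was not called. The log2 fold changes of these 11 neighbours, those below background included, were between −0.24 and 0.69. On the keratin side, KRT78, KRT79, KRT4, KRT3 and LOC100336907 were below background at both densities, as was SOAT2 on the other side. The same was true of all 24 transcript clusters of other keratins on chromosome 5, of which 0 were called.

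**Figure D3:**
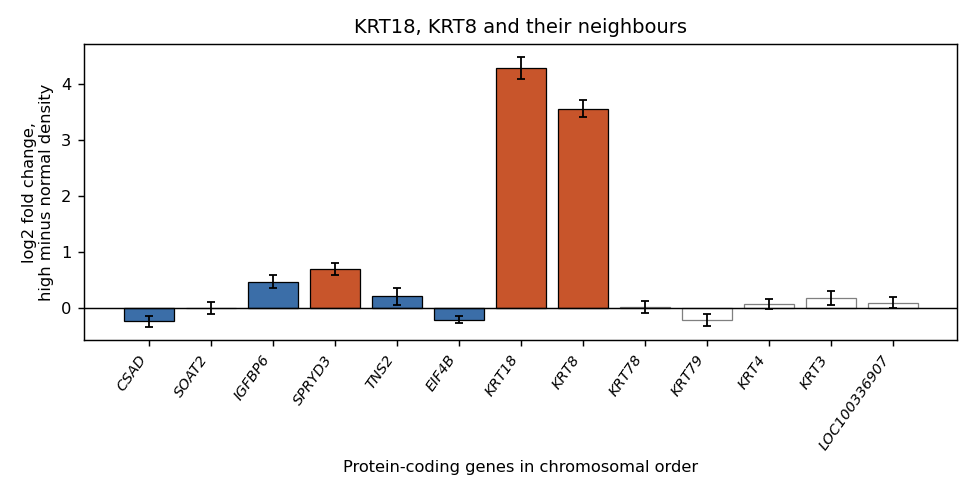
Log2 fold changes, high minus normal density (vertical axis), of KRT18, KRT8 and the protein-coding genes up to 6 places away, in chromosomal order and without scale. Orange bars were called, blue bars were not, white bars had both means at or below background, and error bars are standard errors. KRT18 and KRT8 have the largest rises, SPRYD3 is also called up, and the neighbours lie between −0.24 and 0.69.

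Likeness of pattern was measured by Pearson's r of the log2 signals over the 6 cultures among 11165 transcript clusters with a single symbol and a group mean above background. The 5 genes most like KRT18 were PRUNE2, AHSG, MADD, TFR2 and VEGFA, with r between 0.9990 and 0.9994. KRT8 was at place 67 in this order with r = 0.9963, and KRT18 was at place 50 in the order of KRT8. The cultures form 2 separate groups, so that any gene with a step between the densities has a high r in size, and 291 transcript clusters had an r above 0.99 with KRT18. The genes most like VIM were ZCRB1, C24H18orf25, PRMT6, SAP18 and VPS33B, with r between 0.951 and 0.992, over signals of VIM between 11.11 and 11.20.

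The rest of the keratin family was below background on these arrays. Of 49 transcript clusters with 46 other keratin symbols, 0 had a group mean above background. By limma 1 was called up, a transcript cluster of the hair keratin KRT31, whose means of 2.48 and 3.09 were both below background (adjusted p = 0.0208), so that no fold change is given. The other KRT31 transcript cluster was not called. An unadjusted p-value below 0.05 by limma was found for 11 of the 49, beside 32.3% of all transcript clusters, and the methods' t-test called 0. As none was detected, no median fold change is given for this list.

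Among 15 intermediate filament genes that are no keratins, 6 were above background, 0 were called up and 1 was called down by limma. Over all transcript clusters 3.97% were called up and 3.51% down. The gene called was LMNB1, a lamin of the nuclear envelope, which fell from 5.50 ± 0.08 to 4.77 ± 0.22 (SD, n = 3). Its difference was −0.73 (SE 0.12) with limma's adjusted p = 0.00502. LMNA, the A-type lamin, had a log2 fold change of −0.32, and NES, the nestin gene, of 0.25, and neither was called. INA was above background at high density alone, with means of 4.61 and 5.07. Its log2 fold change was 0.46 (SE 0.13) and it was not called. LMNB2 and IFFO2 had −0.26 and −0.24 and were not called either. The groups did not overlap in any of these genes. The list's median was 0.03, with 9 of its 15 genes below background.

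No gene was called in the list of other desmosomal genes and their linkers, where DSC2, PKP4, PERP, DST and MACF1 were above background. Of 16 genes listed, 15 were found and 5 were above background, and limma called 0 of them, as did the methods' t-test, with 4 of the 15 at an unadjusted p-value below 0.05, beside 32.3% of all transcript clusters. DSC2, the desmocollin of simple epithelia, had signals of 7.31, 7.47 and 7.40 at normal and 7.23, 7.39 and 7.23 at high density. The groups overlapped at a difference of −0.11 (SE 0.08, 95% interval from −0.30 to 0.08). The lowest value in the list was the −0.29 of PKP4 (SE 0.07), at an adjusted p = 0.0233 by limma, a relative of the plakophilins that also binds cadherins outside desmosomes, and it did not reach the fold change threshold. The desmogleins and desmocollins of stratified epithelia, DSG1, DSG3, DSG4, DSC1 and DSC3, were below background. The median of the list was 0.08, with 10 of its 15 genes below background.

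Proteins that bind or modify keratins and vimentin were listed as 22 genes, all of them found and 18 above background. The list also holds KRTCAP2, for which such a role is not established. By limma 0 were called up and 3 were called down, beside 3.97% up and 3.51% down of all transcript clusters. These were the mitotic kinases AURKB, PLK1 and CDK1, which are known to phosphorylate vimentin in dividing cells, with log2 fold changes of −0.65, −0.66 and −1.54 (adjusted p = 0.000693, 0.00239 and 0.000889). All 3 also act in mitosis at large. The keratin organizers TCHP and FAM83H had log2 fold changes of −0.27 and −0.34 and were not called, and the small heat shock proteins HSPB1 and CRYAB had −0.09 and −0.01. DNAJB6 had −0.52 (SE 0.19) with groups that overlapped and was not called. Without high density replicate 2, 4 genes of the list were called down. The median of the list was −0.09.

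In the adherens and hemidesmosome list, 14 of 16 genes were found with 15 transcript clusters, of which 13 were above background. Of the 15, 1 was called up and 2 were called down, beside 3.97% and 3.51% of all transcript clusters. ITGA6, the integrin α6 subunit, rose from 8.44 ± 0.05 to 9.24 ± 0.11 (SD, n = 3). This is a difference of 0.79 (SE 0.08), at an adjusted p = 0.000712 by limma. NECTIN1, listed in the table under its older symbol PVRL1, and VCL, which encodes vinculin, fell with log2 fold changes of −0.63 and −0.60 (limma's adjusted p = 0.00206 and 0.000948). Both lie near the threshold. VCL was not called without normal density replicate 2 or high density replicate 3, at −0.58 each, and NECTIN1 was not called without high density replicate 2, at −0.57. ITGB4, the hemidesmosomal partner of ITGA6, was below background, and CDH1 and CDH2 had log2 fold changes of 0.16 and 0.14 and were not called. CTNND1 missed the fold change threshold at −0.54 (SE 0.07), with an adjusted p = 0.00154 by limma. CTNNB1 and CTNNA2 had −0.21 and −0.24, NECTIN2 had 0.28, and none of these was called. The groups of CTNND1, CTNNB1, CTNNA2, NECTIN2, CDH1 and CDH2 did not overlap. The transcript clusters of CTNNA1 had −0.10 and −0.04 and were not called. The median of the list was −0.04.

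Transcription and splicing factors of epithelial cells were mostly not detected. Of 14 genes 1 was above background and 0 were called by limma or by the methods' t-test, with 4 of the 14 at an unadjusted p-value below 0.05, beside 32.3% of all transcript clusters. The one detected was GRHL1, with means of 4.99 at normal density and 4.47, below background, at high density. It missed the fold change threshold at −0.52 (SE 0.09), with an adjusted p = 0.00591 by limma. Of 10 transcription factors of the epithelial to mesenchymal transition, 6 were above background and 2 were called up, beside 3.97% of all transcript clusters. ZEB1 had signals of 5.44, 5.41 and 5.22 at normal and of 6.49, 6.58 and 6.39 at high density. The groups were well apart, and the difference was 1.13 (SE 0.09) with an adjusted p = 0.000221 by limma. TWIST1 rose by 0.68 (SE 0.11) at an adjusted p = 0.00494 by limma. The other factors above background were SNAI2 and PRRX1, with log2 fold changes of 0.32 and 0.46, and TCF4 and ZEB2, which were lower at high density. TCF4 had −0.45 and ZEB2 had −0.16. PRRX1 was above background at high density alone, with means of 4.34 and 4.80. The groups of SNAI2, PRRX1, TCF4 and ZEB2 did not overlap, and none of these genes was called. The median of this list was 0.30, and none is given for the epithelial factors, of which 13 were below background.

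**Figure D4:**
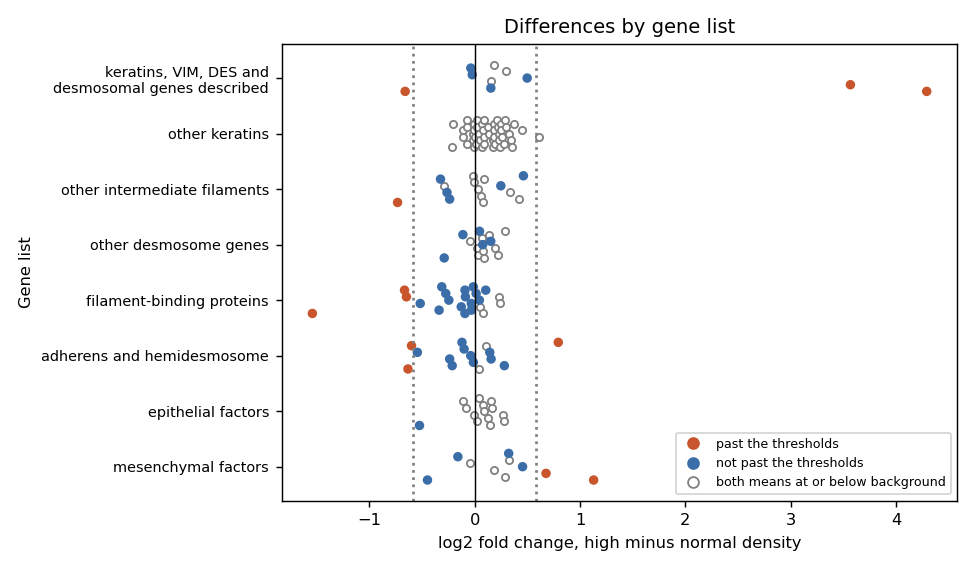
Log2 fold changes, high minus normal density (horizontal axis), with 1 point per transcript cluster and 1 line per gene list. Orange points were called, blue points were not, open points had both group means at or below background, and dotted lines mark a fold change of 1.5 in size. KRT18 and KRT8 lie at 4.29 and 3.57, beyond the other points, of which the highest is ZEB1 at 1.13, and the 49 points of other keratins are all open.

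Markers of the cell types the cultures could hold were measured beside these genes. The counts called in each marker list stand beside 3.97% up and 3.51% down over all transcript clusters. All 10 granulosa markers were above background in at least 1 density, and of these 6 were called down (FSHR, CYP19A1, INHA, INHBA, FOXL2 and FST) and 1 was called up (HSD17B1). Of 9 surface epithelium markers found, 4 were above background, 1 was called up and 0 were called down. The one called was UPK1B, a uroplakin, which rose by 0.62 (SE 0.08) at an adjusted p = 0.00197 by limma. It was not called without high density replicate 2, at 0.55, or with median centring, at 0.57. MSLN, the mesothelin gene, had means of 5.61 at normal and 5.75 at high density with groups that did not overlap, and CDH1 had 5.73 and 5.89, also without overlap. CLDN3 was above background at high density alone, with means of 4.47 and 4.71, and these 3 genes were not called. EPCAM, MUC1, MUC16, UPK3B and CLDN4 were below background at both densities. The summed linear signal of the list was between 850 and 886 at normal and between 1201 and 1354 at high density, most of it from UPK1B. In bulk samples a change in the number of cells of a type and a change of RNA per cell cannot be told apart, and the part of such cells in the rise of KRT8 and KRT18 was not tested.

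Beside DES, 9 of 10 smooth muscle and pericyte markers were found and 6 were above background. Of the 9, 3 were called up and 1 was called down, beside 3.97% and 3.51% of all transcript clusters. ACTA2, TAGLN and CSPG4 rose by 1.15, 1.08 and 0.72 on the log2 scale at adjusted p = 0.000100, 0.000125 and 0.00551 by limma. CNN1, SMTN and MCAM were also above background, with log2 fold changes of 0.23, −0.26 and −0.37, and were not called. MYH11, the smooth muscle myosin, was called down with both means, 4.59 and 3.93, below background (limma's adjusted p = 0.00325). The summed linear signal of the list was between 465 and 485 at normal and between 742 and 808 at high density, and its part in the signals of DES was not tested. Of 8 fibroblast markers 7 were above background and 2 were called up, namely COL1A1 and THY1. Of 6 theca markers 4 were above background, 1 was called up (INSL3) and 1 was called down (LHCGR, with both means, 4.04 and 2.84, below background), and CYP17A1 was below background as well. STAR, NR2F2 and PTCH1 were above background with log2 fold changes of −0.49, −0.07 and 0.31 and were not called. Of 8 endothelial markers 2 were above background, namely CLDN5, which was called up, and VWF, which had means of 5.39 and 5.70 and groups that did not overlap but was not called. The other endothelial markers, PECAM1, CDH5, KDR, TEK, EMCN and ESAM, were below background at both densities and were not called. Of 6 erythroid markers 1 was called up (HBA). None of the 8 leukocyte markers was above background, and limma called 0 of them, with 2 of the 8 at an unadjusted p-value below 0.05, beside 32.3% of all transcript clusters, and 0 by the methods' t-test.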

How the data were processed

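Total RNA from 6 cultures was measured on Bovine Gene 1.0 ST microarrays. Scans went through Expression Console with RMA, per the submitters' processing notes and the methods of the authors (background reduction, normalization between arrays, gene-level summary), and the deposited table holds these log2 signals per transcript cluster and culture. The genome build behind the array annotation is not given in the sources used here. The table holds 0 columns of other samples. Scans and probe signals were not analysed here, so the number of arrays limits the precision.

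Differences were fitted with limma 3.58.1 in R 4.3.3 (lmFit, eBayes, no covariates) over all 26773 transcript clusters with Benjamini-Hochberg adjustment. The thresholds were those of the methods. The fit was tested on simulated data. Alternatives were the methods' t-test (their analysis of variance for 2 groups), a trended robust prior, a block for the replicate number, centring on medians, quantile normalization, a filter at the background level and leaving out each culture. Genes were matched by exact symbol or a RefSeq synonym, and gene order was read from RefSeq. The genes and lists were chosen with earlier results of these data known. Named were all genes of the set, the called members of each list, the called markers, and the 5 genes most like KRT18 and VIM. The highest-signal markers that were not called are given for some lists only. The neighbours and all other list and marker genes named without a call were picked after their values were seen. No sequences were printed. Figures were drawn with matplotlib 3.10.9.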

Additional observations from a re-analysis of the deposited data

How the results depend on the processing

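KRT18 and KRT8 were called under all 12 alternatives, and the median fold change of all transcript clusters went from 0.02 to −0.03 with median centring. PKP2 was called under 10 of 12. The number of genes of the set called down was 1, but 0 with the methods' t-test, and 0 to 1 when single cultures were dropped. JUP moved from −0.02 to 0.0028 with quantile normalization, and leaving out each culture gave −0.078 to 0.082, being above 0 when replicate 2 of normal density (0.015) or of high density was dropped. The 1 intermediate filament transcript cluster called up (KRT31) became 0 with the methods' t-test, median centring, quantile normalization and the filter on low signals, and ranged from 0 to 1 when single cultures were dropped (0 without normal density replicates 2 or 3 or high density replicates 1 or 3). The 2 adherens and hemidesmosome genes called down were 3 with median centring and ranged from 1 to 2 when single cultures were dropped. The correlations of deviations between same-numbered cultures were between −0.05 and 0.05, and those over all pairings were between −0.07 and 0.09. No pairing stood out, so the check cannot tell whether the densities shared a pool. With the replicate number as a block 2020 transcript clusters were called in place of 2005. Of the 10 genes 2 were then called up and 1 was called down. Among 38 single genes, 431 values kept direction and call, 15 lost and 1 gained the call, and 3 changed sign. Signals below the background level limit KRT7, KRT19, DSP and most of the keratin family.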
